A study of Mus musculus with 2 samples.

Results

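This section describes the genes of F-box, Kelch-like and RING finger ubiquitin ligases in control and LPS-treated macrophages. The members were chosen by symbol alone. They are the genes whose symbol begins with Fbxl, Fbxo, Fbxw or Klhl, or is Rnf followed by a digit, and that have a probe set assigned to them and to no other gene. Rnf31 and Fbxo32 were left out by that rule. This gave 176 genes with 336 probe sets, of 18193 genes on the array with such a probe set: 17 Fbxl, 31 Fbxo, 18 Fbxw, 33 Klhl and 77 Rnf genes. A shared symbol does not make a shared function, and not every member has been shown to act as a ligase. The macrophages came from the bone marrow of C57BL6 mice and were grown in medium with serum and M-CSF, the growth factor that turns marrow precursors into macrophages. One culture was a control, and the other was given lipopolysaccharide (LPS, a cell wall component of Gram-negative bacteria sensed through Toll-like receptor 4) at a dose and for a time that the labels do not state. The comparison asks which transcripts differ in macrophages after LPS. Each condition was measured on 1 Affymetrix Mouse Genome 430 2.0 array, so that there is no replicate, no test and no p-value. Each difference is therefore one between 2 arrays, with no replicate check, and their number limits the precision.

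Ubiquitin is passed from an E1 enzyme to an E2 enzyme and then, by an E3 ligase, to a target protein, which is often degraded by the proteasome afterwards. Cullin-RING ligases are assembled from parts: F-box proteins bind targets and dock on SKP1 and the cullin CUL1, and most Kelch-like proteins do the same on CUL3 with their BTB domain. Rnf genes carry a RING finger, a zinc-binding fold that brings the E2 enzyme to the target, and many of their products work without a cullin. In macrophages such ligases are known to act on the receptors, adaptors and inhibitors of inflammatory signalling as well as on the cell cycle and on organelle membranes.

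Signals are linear MAS5 values as the authors deposited them, and a log2 ratio is the LPS minus the control value on the log2 scale. The floor is an array's median signal, 35.1 for the control and 26.7 for the LPS array. A signal under its floor was set to the floor, and the fold is then written as at least N-fold. A gene was called measured when it reached the floor on at least 1 array. The genes of the array as a whole stood lower after LPS, by a median of -0.42 (log2 ratio) over 11722 measured genes, so counts are given as deposited and after this median was subtracted (median-centred). The treatment was visible in Il6 (0.815, under the floor, in the control and 8178 after LPS) and Tnf (102 and 6982). All 8 macrophage markers reached the floor on both arrays, with summed signals of 41183 and 44120. Of 29 markers of 7 other cell types, 4 reached it in the control and 7 after LPS, among them the endothelial gene Kdr (63.8 and 225). Marker genes of T cells and of mast cells were all under the floor. In such bulk RNA, fewer cells of a type and less RNA per cell cannot be told apart.

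Of the 176 members, 129 (73.3%) were measured, against 64.4% of all genes, and 114 of them reached the floor on both arrays. By the 2-fold threshold 49 members differed (38.0%, against 34.5% of all measured genes): 9 had the higher signal after LPS (6.98%, against 8.22%) and 40 the lower one (31.0%, against 26.2%). The remaining 80 lay within 2-fold. The median log2 ratio of the measured members was -0.55. After median centring 41 members passed 2-fold (31.8%, against 28.4%), with 16 on the higher side (12.4%, against 13.1%) and 25 on the lower (19.4%, against 15.3%). After a loess correction for signal 35 passed it (27.1%, against 26.6%), with 15 higher (11.6%, against 13.8%) and 20 lower (15.5%, against 12.8%). These shares lay close to those of the array as a whole. Of the 9 higher members as deposited, 7 were Rnf and 2 were Fbxw genes, while the Fbxl, Fbxo and Klhl families had 0.

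The spread between the families was smaller than the spread within them. The Klhl genes had the lowest median log2 ratio (-0.94, from -3.05 to -0.03 over 20 measured genes), followed by Fbxl (-0.68, from -1.82 to 0.81 over 13) and Fbxo (-0.68, from -3.80 to 0.09 over 24). Fbxw (-0.33, from -2.73 to 1.81 over 11) and Rnf (-0.33, from -4.64 to 2.60 over 61) lay closest to the median of all genes. After loess the medians were -0.47 for Klhl, -0.14 for Fbxo, 0.09 for Fbxl, 0.18 for Rnf and 0.39 for Fbxw, so the direction of the Fbxl, Rnf and Fbxw medians was not settled. The medians of the Klhl and of the Fbxo genes were negative under each of the 11 alternatives that give a median. The order of neighbouring families has no replicate error to be judged against.

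**Figure D1:**
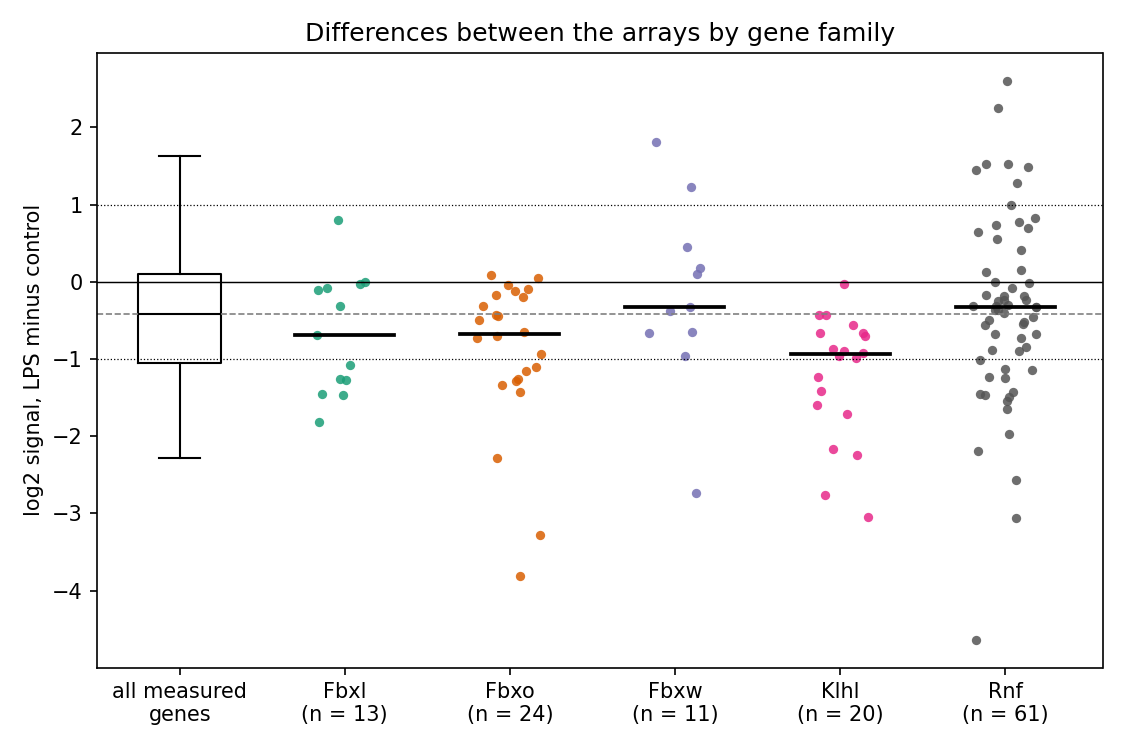
Log2 ratio of LPS over control signal (vertical axis, LPS minus control) for each measured member, 1 point per gene, by family, with a thick bar at the family's median. The box at the left gives the median, quartiles and 5th to 95th percentile of all 11722 measured genes, the dashed line their median of -0.42 and the dotted lines 2-fold, and the points above the upper dotted line are 7 Rnf and 2 Fbxw genes.

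Only 2 members were higher by 4-fold or more, both of them Rnf genes. Rnf19b, a RING-between-RING ligase (a class whose members take over the ubiquitin themselves before passing it on) known from the granules of natural killer cells and from macrophages, went from 327 to 1987, 6.07-fold higher. Its 2 probe sets had log2 ratios of 2.32 and 2.60, so both placed it above 4-fold. Rnf213, a very large protein with an ATPase motor and a RING finger that is known to ubiquitylate the LPS of bacteria in the cytosol, went from 1546 to 7329, 4.74-fold higher. Its other probe set was near the floor, with 47.8 and 47.5, a log2 ratio of -0.01, and did not show the difference. The share of all measured genes that were at least 4-fold higher was 3.80%, and that of the members was 1.55%.

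At the other end, 12 members were at least 4-fold lower (9.30%, against 7.22% of all measured genes). Rnf144b, also a RING-between-RING ligase and known as a target of p53, had the lowest ratio of all members. Its signal was 1141 in the control and 45.9 after LPS, 24.9-fold lower, and its other measured probe set went from 131 to 10.9, under the floor, which bounds its log2 ratio at -2.29 or lower. Fbxo5 encodes EMI1, the inhibitor of the anaphase-promoting complex, and went from 555 to 39.7, 14.0-fold lower by its single probe set. Thus the RING-between-RING class held both the highest and the lowest member.

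The promoters of these 4 genes are shown because they are the 2 highest and the 2 lowest members by ratio. Each is the stretch of 250 bases before the start of the gene from RefSeq (GRCm38.p6), 5′ to 3′ on the gene's strand, with matches to a loose form of the NF-kappaB element (GGG, any 5 bases, CC) and to TTCNNNGAA, the gamma-activated site bound by STAT factors, in capitals.
Rnf19b, chr4:129057894-129058143, plus strand: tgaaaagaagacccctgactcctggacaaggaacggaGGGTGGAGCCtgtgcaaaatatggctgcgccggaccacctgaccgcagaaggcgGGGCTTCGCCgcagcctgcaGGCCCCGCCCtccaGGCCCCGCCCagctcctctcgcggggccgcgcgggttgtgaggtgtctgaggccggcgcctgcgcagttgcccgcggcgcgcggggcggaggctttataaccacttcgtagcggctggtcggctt
Rnf213, chr11:119389849-119390098, plus strand: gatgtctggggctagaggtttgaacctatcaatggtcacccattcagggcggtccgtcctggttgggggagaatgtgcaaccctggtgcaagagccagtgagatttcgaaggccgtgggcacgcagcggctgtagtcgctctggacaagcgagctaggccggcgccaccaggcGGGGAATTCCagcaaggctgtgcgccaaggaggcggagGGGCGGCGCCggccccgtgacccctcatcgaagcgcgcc
Rnf144b, chr13:47122470-47122719, plus strand: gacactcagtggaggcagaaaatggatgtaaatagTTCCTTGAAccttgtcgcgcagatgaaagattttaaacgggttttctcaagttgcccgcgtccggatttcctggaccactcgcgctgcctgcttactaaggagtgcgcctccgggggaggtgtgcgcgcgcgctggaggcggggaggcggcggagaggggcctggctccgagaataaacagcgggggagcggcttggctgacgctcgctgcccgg
Fbxo5, chr10:5805466-5805715, minus strand: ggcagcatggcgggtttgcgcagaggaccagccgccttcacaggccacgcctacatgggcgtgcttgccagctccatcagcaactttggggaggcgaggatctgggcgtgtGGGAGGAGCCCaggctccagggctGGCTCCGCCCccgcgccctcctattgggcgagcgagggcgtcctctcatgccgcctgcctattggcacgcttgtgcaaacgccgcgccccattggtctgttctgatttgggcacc
For Rnf144b the table holds a second start, which is not shown. Matches were searched on both strands of the whole window, which also holds the first 50 bases after the start, and overlapping matches of 1 element were kept. The loose element was found in 3 of the 4 genes, and TTCNNNGAA in Rnf144b alone among them. The loose element is common: 53.5% of the 27025 genes in the promoter table and 75 of the 104 measured members with a promoter there held it, among them 6 of 8 members at least 2-fold higher and 19 of 28 at least 2-fold lower. A stricter NF-kappaB element was GGG, any 2 bases, TTT, CC, and the interferon response element GAAA, any 2 bases, GAAA. Each was found in 0 of these 8 and 0 of these 28 members, against 1.89% and 3.99% of all genes. Of the 104 measured members, 0 held the first and 7 (6.73%) the second. With shares this low among all genes, a count of 0 in so few members carries little information. The stricter pattern also covers only some forms of the NF-kappaB element, and the loose match GGGATTTCCC of Fbxo11, for example, lies outside it. TTATNNAA, the core of the D-box, was found in 0 of the 8 and in 4 of the 28 (Fbxo8, Klhl7, Klhl9 and Rnf181), against 13.8% of all genes. Among the 104 measured members 7 (6.73%) held it. TTCNNNGAA was found in 0 of the 8 and 2 of the 28, against 9.55%, and the E-box CACGTG in 1 and 3, against 8.09%. TTTNGCGC, which covers only some forms of the E2F element, was found in 0 and 0, against 1.57%. Other forms of that element were not searched. A match is a description of the letters in this window.

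**Figure D2:**
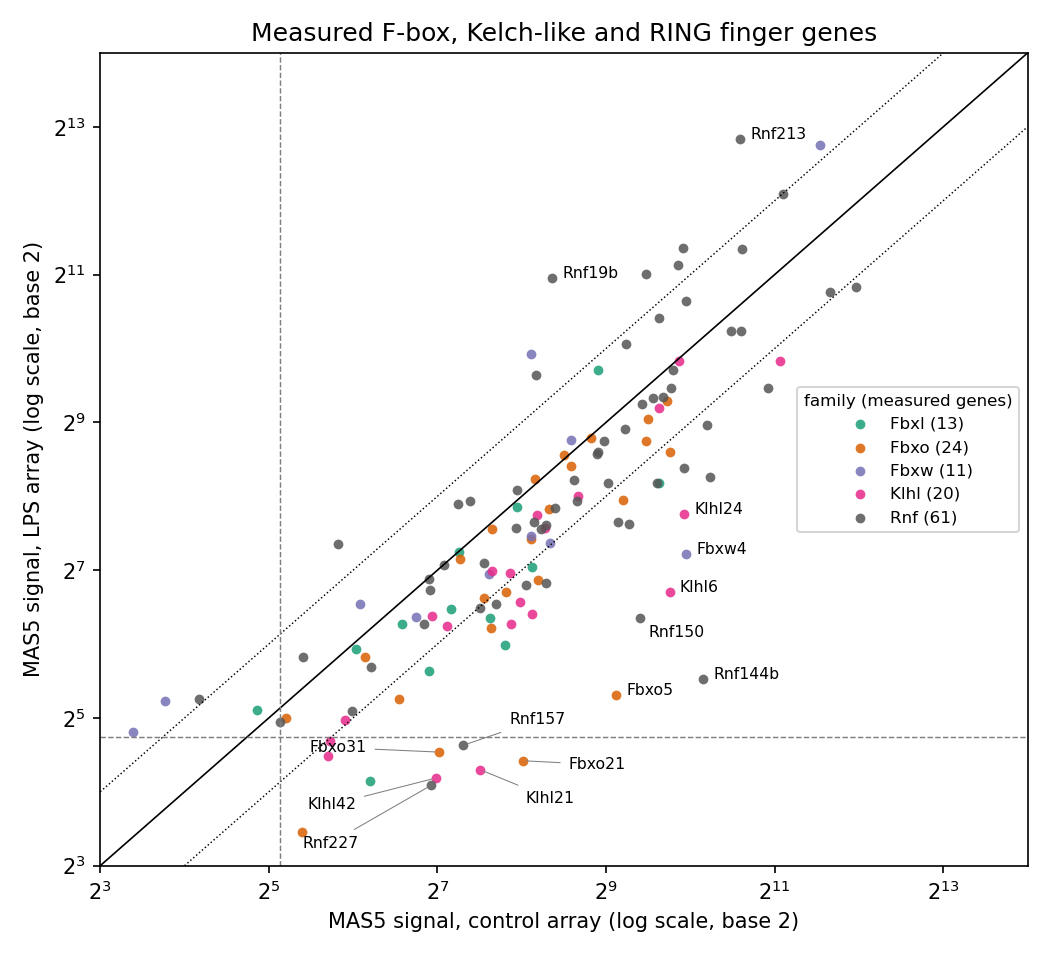
MAS5 signal of the control array (horizontal axis) and of the LPS array (vertical axis), both on log scales, for the 129 measured members, coloured by family. The solid line marks equal signals, the dotted lines 2-fold and the dashed lines the floors, and the 14 members at least 4-fold higher or lower are named, of which 2 lie above the solid line and 12 below it.

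A list of 10 Rnf genes of innate immune signalling included 4 of the 9 higher members. It was chosen with earlier results of these data known and is not exhaustive. Members described under other headings, lower ones among them, may act in such signalling too. The shares below therefore hold for the listed genes alone and depend on that choice. Of 10 listed genes, all measured, 4 stood at least 2-fold higher (40.0%, against 8.22% of all measured genes) and 1 stood lower (10.0%, against 26.2%). The median of the list was 0.48 (log2 ratio), against -0.42 for all measured genes. Median centring gave 5 higher and 1 lower, against 13.1% and 15.3% of all measured genes. Besides Rnf19b and Rnf213, Rnf135 (Riplet), which attaches ubiquitin chains to the RNA sensor RIG-I, went from 287 to 801, 2.79-fold higher. Rnf114 went from 966 to 2633, 2.73-fold higher, and its 3 measured probe sets had log2 ratios from 1.45 to 1.71. Rnf128 (GRAIL), known for its role in T cell anergy, was the listed gene that stood lower, from 1944 to 707 (2.75-fold), with 2 probe sets at -1.46 and -1.44. Rnf34, whose product acts on the adaptor MAVS, had 604 and 1068, a log2 ratio of 0.82 that reached 1.25 after median centring. Rnf125, a ligase for RIG-I, was under the floor on the control array at 18.0 and above it on the LPS array at 38.3. Rnf41 had 503 and 428, with 4 probe sets from -0.86 to 0.34. Rnf216, which acts on Toll-like receptors, had 244 and 190.2, and Rnf138 had 299 and 188, each within 2-fold.

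Of the 80 members within 2-fold, 43 changed sign under at least 1 of the 5 scalings tried, so for members within 2-fold signals or ratios are given without a direction. The 7 RING-between-RING genes, all measured, were divided: 2 were higher (28.6%, against 8.22% of all measured genes), 1 lower (14.3%, against 26.2%) and 4 within 2-fold. Rnf14, which also acts as a coactivator of the androgen receptor, went from 711 to 2053, 2.89-fold higher, and its 4 probe sets had log2 ratios from 1.01 to 1.65. Rnf19a, the closest relative of Rnf19b, had 476 and 382, a log2 ratio of -0.32, so these paralogues had different ratios. Rnf144a, the relative of Rnf144b, had 63.7 and 34.1, a log2 ratio of -0.90, and its other measured probe set went from 31.1, under the floor, to 38.0, a log2 ratio of at least 0.11. Rnf217 had nearly equal signals, 135 and 134.

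The transmembrane ligases with a protease-associated domain, which sit in endosomes, lysosomes or at the cell surface, included 5 lower genes as deposited. Of 7 measured of 10 listed, these 5 (71.4%) were at least 2-fold lower, against 26.2% of all measured genes, and 0 were higher, against 8.22%. After median centring 3 were lower and 1 higher, against 15.3% and 13.1% of all genes, and the median of the list as deposited was -1.15 (log2 ratio). Rnf150 went from 678 to 81.7, 8.31-fold lower. Rnf167, found on lysosomes, went from 563 to 200.2 (2.81-fold), Rnf128 is given above, and Rnf215 went from 206 to 93.3 (2.21-fold). Rnf130 went from 4000.3 to 1825 (2.19-fold), but its probe sets ranged from -1.13 to 0.08, and with plain probe sets alone its log2 ratio was 0.083. Rnf13, with 3220.0 and 1744, had a log2 ratio of -0.88. Rnf149 had 2202 and 4381, a log2 ratio of 0.99 that reached 1.42 after median centring, so this class was not uniform. Rnf43, Rnf133 and Rnf148 were under the floor on both arrays.

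Ligases of organelle membranes were also divided. Of 9 measured of 13 listed, 1 was at least 2-fold higher (11.1%, against 8.22%) and 4 lower (44.4%, against 26.2%), while median centring gave 3 higher and 2 lower, against 13.1% and 15.3% of all measured genes. Rnf145, a sterol-responsive ligase of the endoplasmic reticulum, went from 925 to 2248, 2.43-fold higher. Its relative Rnf139 (TRC8) had 793 and 1359.9, a log2 ratio of 0.78, and 1.20 after median centring. Rnf26, which holds vesicles near the nucleus, went from 1203 to 306, 3.93-fold lower, and its 2 probe sets were at -1.98 and -1.56. Rnf103 went from 779 to 290.2 (2.68-fold lower), Rnf5 from 1174 to 498 (2.36-fold) and Rnf170, which acts on inositol trisphosphate receptors, from 181 to 89.9 (2.01-fold). The last 2 of these lay within 2-fold after median centring. Rnf185, the paralogue of Rnf5, had 336 and 229.9. Rnf121 had 152 and 238, a log2 ratio of 0.65, with its other probe set at -0.22, and Rnf180 had 394 and 299.

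Of 9 listed ligases of chromatin and DNA damage, all measured, 0 were at least 2-fold higher (8.22% of all measured genes were) and 2 lower (22.2%, against 26.2%), shares near those of the array. Rnf168, which ubiquitylates histone H2A at DNA breaks, went from 313 to 113, 2.76-fold lower, and its relative Rnf169 from 266 to 112, 2.38-fold lower. After median centring 1 listed gene was higher and 1 lower, against 13.1% and 15.3% of all measured genes. Rnf169 was then within 2-fold (log2 ratio -0.83), and after loess Rnf168 was too (-0.75). Rnf8, which acts before RNF168 at breaks, had 283 and 201. The histone H2B ligase genes Rnf20 and Rnf40, whose products form 1 complex, had log2 ratios of -0.73 and 0.15. Rnf2, of the Polycomb complex, had 688 and 608, and Rnf111 had 821 and 653. Rnf4, which recognizes SUMO chains, had 991 and 1604, with probe sets at 0.69 and 0.80, and its log2 ratio of 0.69 became 1.12 after median centring.

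Among the Rnf genes outside these lists, Rnf24 went from 56.5 to 163, 2.89-fold higher, although its call was lost with the floor at the 65th percentile, where its log2 ratio was 0.84. Rnf115 had 1569 and 2611, a log2 ratio of 0.73 that became 1.16 after median centring. Rnf157 went from 158 to 24.8, under the floor, at least 5.93-fold lower, but its 2 other measured probe sets were at -0.99 and -0.91. Rnf227, listed as a long noncoding RNA in the RefSeq table, went from 122 to 17.0, under the floor, at least 4.57-fold lower, and its other probe set went from 49.0 to 8.49, also under the floor, which bounds its log2 ratio at -0.88 or lower. Rnf166 was 3.12-fold lower and Rnf181 2.92-fold lower, from 617 to 197 and from 976 to 334. Rnf7 encodes RBX2, the RING subunit that brings the E2 enzyme to CUL5, and had 1559 and 1208. Rnf146, whose product recognizes poly-ADP-ribose, had 875 and 704, and Rnf214 had 167 and 245, with 4 probe sets from -1.10 to 0.56. Rnf187, another ligase gene, had 1434 and 1210.0. For Rnf157 the choice of probe set thus decided the size of the difference, and for Rnf214 its sign.

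**Figure D3:**
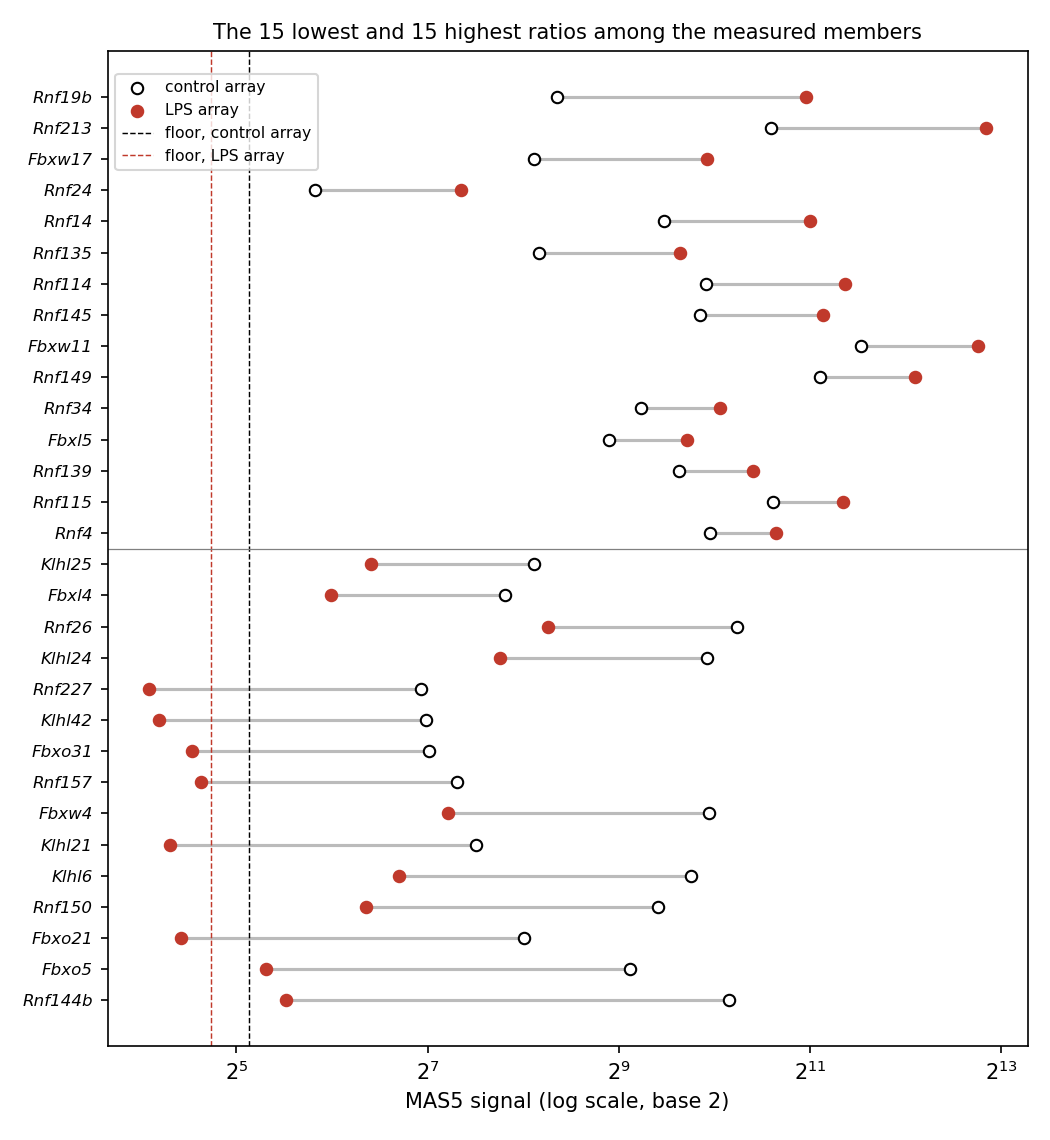
MAS5 signal on the control array (open circles) and the LPS array (filled circles), on a log scale, for the 15 highest and 15 lowest members by log2 ratio, ordered by ratio. The dashed lines are the floors, and Fbxo21, Klhl21, Rnf157, Fbxo31, Klhl42 and Rnf227 fall under the LPS floor.

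The Fbxw genes, whose products bind targets through WD40 repeats, included the 2 higher adaptors. Of 11 measured of 18, 2 were at least 2-fold higher (18.2%, against 8.22%) and 1 lower (9.09%, against 26.2%). Median centring left these counts at 2 and 1, when 13.1% of all measured genes were higher and 15.3% lower. Fbxw11 encodes beta-TrCP2, which binds phosphorylated IkappaB and beta-catenin, and went from 2964 to 6915, 2.33-fold higher. Its 5 probe sets had log2 ratios from 0.43 to 1.88, so all were above 0 and their sizes varied. Btrc, which encodes the paralogue beta-TrCP1 and is no member by its symbol, had 49.5 and 57.2, within 2-fold. Fbxw17 went from 276 to 972, 3.51-fold higher. Fbxw4, the gene affected in the mouse limb mutant dactylaplasia, went from 985 to 148, 6.64-fold lower. Fbxw7, which marks MYC, cyclin E and Notch for degradation, had 276 and 176, a log2 ratio of -0.65 with its other probe set at -0.60. Fbxw2, with 324 and 166, had 6 measured probe sets from -1.09 to 0.11. Fbxw5 (107 and 82.6), Fbxw8 (383 and 434), Fbxw9 (196 and 124) and Fbxw22 (67.7 and 92.9) lay within 2-fold. Fbxw16 and Fbxw19, which belong to a cluster of similar mouse genes, were under the floor on the control array (10.5 and 13.6) and just above it on the LPS array (28.0 and 37.7).

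Of 24 measured of 31 Fbxo genes, 0 stood at least 2-fold higher (8.22% of all measured genes did) and 9 lower (37.5%, against 26.2%). Of the 24, 4 were lower after median centring, when 15.3% of all measured genes were. The loess correction left 3 lower, when 12.8% of all measured genes were. The 4 after median centring were Fbxo5, Fbxo21, Fbxo31 and Fbxo25. Fbxo31, which targets cyclin D1 after DNA damage, went from 129 to 23.2, under the floor, at least 4.85-fold lower, and its other probe set was also under the floor after LPS. Fbxo21 went from 258 to 21.4, under the floor, at least 9.67-fold lower, while its other probe set was at -0.65. Fbxo25 went from 199.5 to 74.4, 2.68-fold lower. Fbxo11, which targets the repressor BCL6, went from 864 to 386 (2.24-fold). Fbxo45, whose product works with a ligase other than CUL1, went from 293 to 116 (2.52-fold), with its other probe set at -0.45. Fbxo10 (2.44-fold), Fbxo8 (2.38-fold) and Fbxo34 (2.15-fold) completed the lower group.

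Other Fbxo genes with known roles lay within 2-fold. Fbxo7, which is linked to mitophagy and to parkinsonism, had 285 and 302. Fbxo3, known to target FBXL2, had 714 and 429.5, with 5 probe sets from -1.30 to -0.15. Of the glycoprotein-binding genes, which recognize sugar chains on misfolded proteins, 3 of 5 were measured and 0 passed 2-fold: Fbxo6 had 364 and 375, while Fbxo27 (36.8 and 32.1) and Fbxo44 (42.0 and 10.9, under the floor) were close to the floor. Fbxo4 had 201 and 189. Fbxo22 had 846 and 626, Fbxo33 722 and 530.5, and Fbxo38 452 and 441.

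Among the cell cycle genes of the F-box families, 2 of 6, all measured, were at least 2-fold lower (33.3%, against 26.2% of all measured genes), Fbxo5 and Fbxo31, and 0 were higher (8.22%). Fbxl12, which acts on cyclin-dependent kinase inhibitors, had 143 and 88.7. The F-box genes Skp2, which targets the inhibitor p27, and Ccnf, which encodes cyclin F, are not members by symbol. Skp2 went from 316 to 40.2, 7.86-fold lower, with all 6 probe sets lower, and Ccnf from 340.2 to 37.4, 9.11-fold lower.

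Of 13 measured of 17 Fbxl genes, whose products bind targets through leucine-rich repeats, 0 were at least 2-fold higher (8.22% of all measured genes were) and 6 lower (46.2%, against 26.2%). After median centring 3 were lower, Fbxl4, Fbxl2 and Fbxl20, and 1 was higher, Fbxl5, against 15.3% and 13.1% of all measured genes. The loess correction gave 2 lower and 1 higher, against 12.8% and 13.8% of all measured genes. Fbxl4, a mitochondrial protein that restrains mitophagy, went from 224 to 63.5, 3.53-fold lower. Fbxl20 went from 794 to 289.7, 2.74-fold lower, and its 4 probe sets were all below 0, from -2.27 to -1.11. Fbxl2, a lipid-modified F-box protein, went from 73.5 to 17.6, under the floor, at least 2.76-fold lower. Fbxl5, which senses iron and degrades the iron regulatory protein IRP2, had 479 and 837, a log2 ratio of 0.81 and of 1.23 after median centring. Fbxl6 (2.42-fold), Fbxl8 (2.39-fold) and Fbxl17 (2.11-fold), the last a quality control factor for BTB dimers, were lower as deposited and within 2-fold after median centring. Fbxl19, which acts on the interleukin-33 receptor, had 95.6 and 77.1. Fbxl14 (245 and 231) and Fbxl15 (152 and 152) had nearly equal signals, and Fbxl18 had 65.7 and 61.0. Fbxl21, a clock gene that acts on cryptochromes, was near the floor with 29.1, under it, and 34.5.

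The Klhl genes, the adaptors of CUL3, had 0 members at least 2-fold higher among 20 measured of 33, against 8.22% of all measured genes. On the lower side 8 passed 2-fold (40.0%, against 26.2%), and 6 did after median centring, when 15.3% of all genes did. All 20 log2 ratios were below 0 as deposited, against 71.1% of all measured genes, and 19 of 20 lay below the median gene. The exception was Klhl5, with 930.4 and 910.2 and another probe set that went from 22.8, under the floor, to 66.4, a log2 ratio of at least 0.92. The number below 0 was 16 of 20 after loess, the lowest of the alternatives, when 49.4% of all genes were below 0. Klhl6, which is needed for germinal centre B cells, went from 863 to 104, 8.28-fold lower. The B cell marker Cd79b went from 110.0 to 35.3 on the same arrays, and the B cell genes Cd79a, Pax5 and Ms4a1 were under the floor on both. The part of B cells in the Klhl6 signal was not tested.

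Klhl24, known from skin fragility caused by loss of keratin 14, had 5 probe sets that all lay below 0, from -3.81 to -1.67, and by the one used it went from 972 to 217, 4.49-fold lower. Klhl21, which guides Aurora B to the spindle midzone, went from 182 to 19.7, under the floor, at least 6.81-fold lower. Klhl42, which acts on the microtubule-severing protein katanin, went from 127 to 18.2, under the floor, at least 4.75-fold lower. Klhl9, a partner of KLHL13 and KLHL21 in mitosis, went from 2149.6 to 912, 2.36-fold lower, and was within 2-fold after median centring. Klhl22 had 233 and 125, and Klhl18 had 123 and 83.3. Of the 6 Kelch-like genes listed for mitosis, 5 were measured and 3 (60.0%) were at least 2-fold lower, against 26.2% of all measured genes, and after median centring 2 were, against 15.3%.

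Klhl25, which targets the translation inhibitor 4E-BP1, went from 278 to 84.8, 3.27-fold lower, but its other probe set went from 31.1, under the floor, to 63.8, a log2 ratio of at least 0.86. Klhl17, a partner of actin in neurons, went from 234 to 77.5 (3.02-fold), with its other probe set at -1.28. Klhl7, linked to retinal degeneration, went from 253 to 95.2 (2.66-fold). Within 2-fold were Klhl12, which acts on the COPII coat (139 and 75.5), Klhl20 (309.5 and 190.1), Klhl2, a regulator of WNK kinases (290.0 and 215), Klhl11 (406 and 257) and Klhl28 (793 and 588). Klhl36, Klhl15 and Klhl8 were close to the floor, with control signals of 52.8, 51.9 and 59.7 and LPS signals of 25.7 and 22.3, under the floor, and 31.5. No Klhl gene thus passed 2-fold upward under the alternatives tried.

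The probe sets of a gene give a technical gauge in place of replicates. Among the 25 members past 2-fold that had more than 1 measured probe set, these pointed in 1 direction for 22 (88.0%), against 92.8% of such genes over the whole array. The 3 with mixed directions were Klhl25, Rnf130 and Rnf213. The log2 ratios of the probe sets of Fbxo21, Klhl24, Klhl25 and Rnf213 differed by over 2, and those of Rnf144b did so only with the floor applied to its dimmer probe set. For Klhl24 all of them lay on 1 side of 0, and for Rnf213 and Klhl25 they did not.

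**Figure D4:**
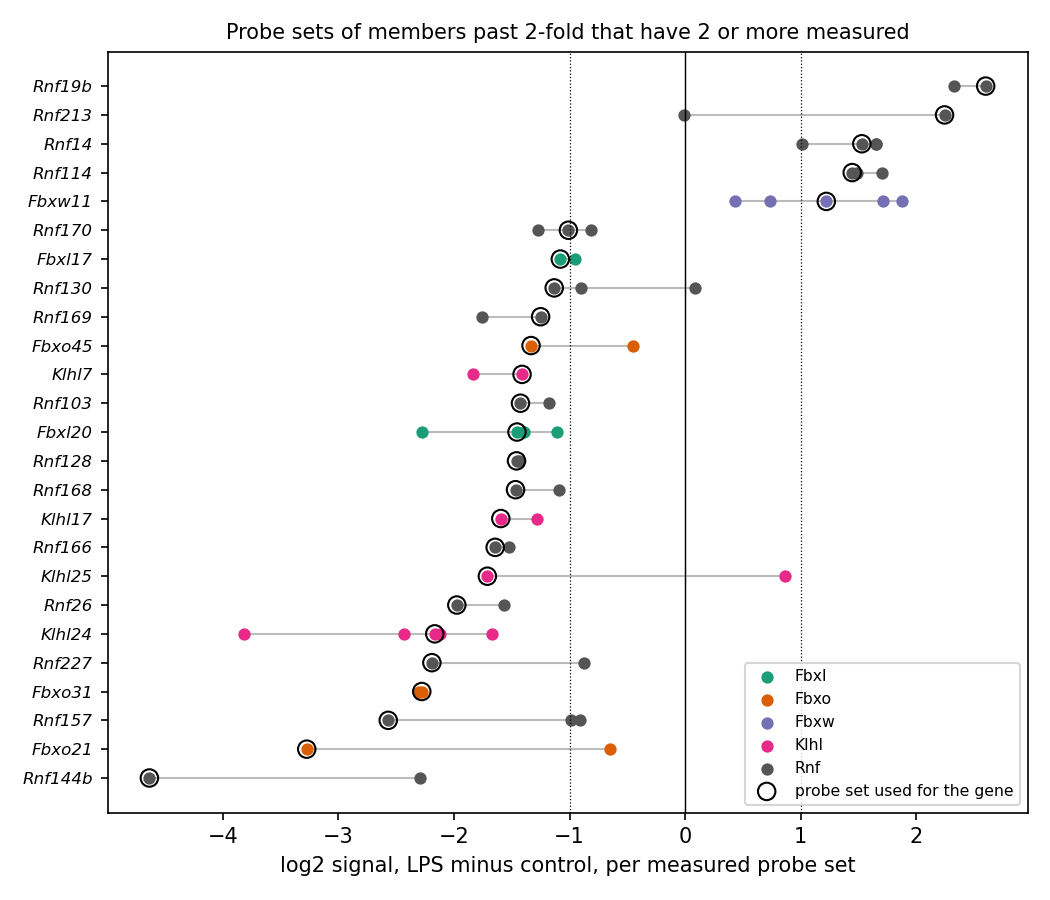
Log2 ratio of LPS over control signal (horizontal axis) for every measured probe set of the 25 members past 2-fold that have 2 or more of them, coloured by family. The open ring marks the probe set used for the gene, the dotted lines mark 2-fold, and Rnf213, Rnf130 and Klhl25 have probe sets on both sides of 0. Where 1 signal was under its floor the point is a bound.

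The remaining 47 members were under the floor on both arrays and have no ratio. They included genes known from other tissues: the muscle genes Klhl30, Klhl40 and Klhl41, the testis or germ cell genes Klhl10, Fbxo24, Fbxo43, Rnf17 and Rnf151, and the neuronal genes Klhl1, Fbxo2, Fbxo41, Fbxl16, Rnf112 and Rnf182. Of the Fbxw family, Fbxw10, Fbxw13, Fbxw14, Fbxw18, Fbxw21, Fbxw24 and Fbxw27 were under the floor. Also under it were Fbxl7, Fbxl13, Fbxl12os, Fbxo15, Fbxo16, Fbxo17, Klhl4, Klhl13, Klhl14, Klhl23, Klhl29, Klhl32, Klhl33, Klhl35, Rnf39, Rnf43, Rnf122, Rnf133, Rnf138rt1, Rnf148, Rnf152, Rnf183, Rnf186, Rnf207, Rnf208 and Rnf222. The highest signals among these 47 were 34.9 for the control and 25.2 for LPS, so each has only a bound at the floor.

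The partners of these ligases were described from lists of the pathway. Of 13 measured genes of the cullin-RING core, 2 passed 2-fold on the higher side (15.4%, against 8.22%) and 3 on the lower (23.1%, against 26.2%), and the median of the list was -0.48 (log2 ratio). Cul1, the scaffold of the F-box ligases, went from 518 to 1144, 2.21-fold higher, and Cul2 from 430.3 to 1156, 2.69-fold higher. Cul3, the scaffold of the Kelch-like ligases, had 1213 and 1039.9, and Skp1, which links F-box proteins to CUL1, had 2346 and 1609, both within 2-fold. Cul7 went from 157 to 36.7 (4.29-fold lower), Cul9 from 96.7 to 44.6 (2.17-fold) and Cul4b from 461 to 225 (2.05-fold). Of these lower 3, 1 passed 2-fold after median centring.

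Of 22 measured genes of neddylation and the COP9 signalosome, which switch cullins on and off, 2 were at least 2-fold higher (9.09%, against 8.22%) and 1 lower (4.55%, against 26.2%). The higher ones were Dcun1d3 (104 to 372, 3.57-fold higher), which regulates the attachment of NEDD8 to cullins, and Ube2f (817 to 2554, 3.13-fold higher), the NEDD8 E2 enzyme that works with RBX2 on CUL5. The 6 probe sets of Ube2f ranged from -0.15 to 1.64. Of 29 measured genes of ubiquitin, E1 and E2 enzymes, 3 were higher (10.3%, against 8.22%) and 3 lower (10.3%, against 26.2%), and the median log2 ratio was 0.12, against -0.42 for all measured genes. Ube2l6, the E2 enzyme for the ubiquitin-like protein ISG15, was 3.30-fold higher, from 176 to 579, and Ube2e1 and Ube2e2 were 2.24-fold and 2.40-fold higher. Ube2t, the E2 enzyme of the Fanconi anaemia pathway, went from 328 to 11.1, under the floor, at least 12.3-fold lower, and its other probe set was under the floor after LPS too. Ube2c, which works with the anaphase-promoting complex, was 2.14-fold lower and Ube2e3 2.61-fold lower.

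Adaptors of the same kinds exist under other symbols. Of 17 measured F-box and BTB-Kelch genes outside the symbol rule, 0 passed 2-fold on the higher side (8.22% of all measured genes did) and 7 on the lower (41.2%, against 26.2%). After median centring 7 were lower and 1 higher, against 15.3% and 13.1% of all measured genes. Enc1 was 9.75-fold lower, Kdm2b, an F-box histone demethylase, 8.70-fold, Ivns1abp 6.17-fold and Kbtbd7 4.20-fold. Keap1, the CUL3 adaptor that holds NRF2 in check, had 485 and 886, a log2 ratio of 0.87 that became 1.29 after median centring. Whether adaptors and the enzymes they work with differ was not tested, since there is 1 array a condition.

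**Figure D5:**
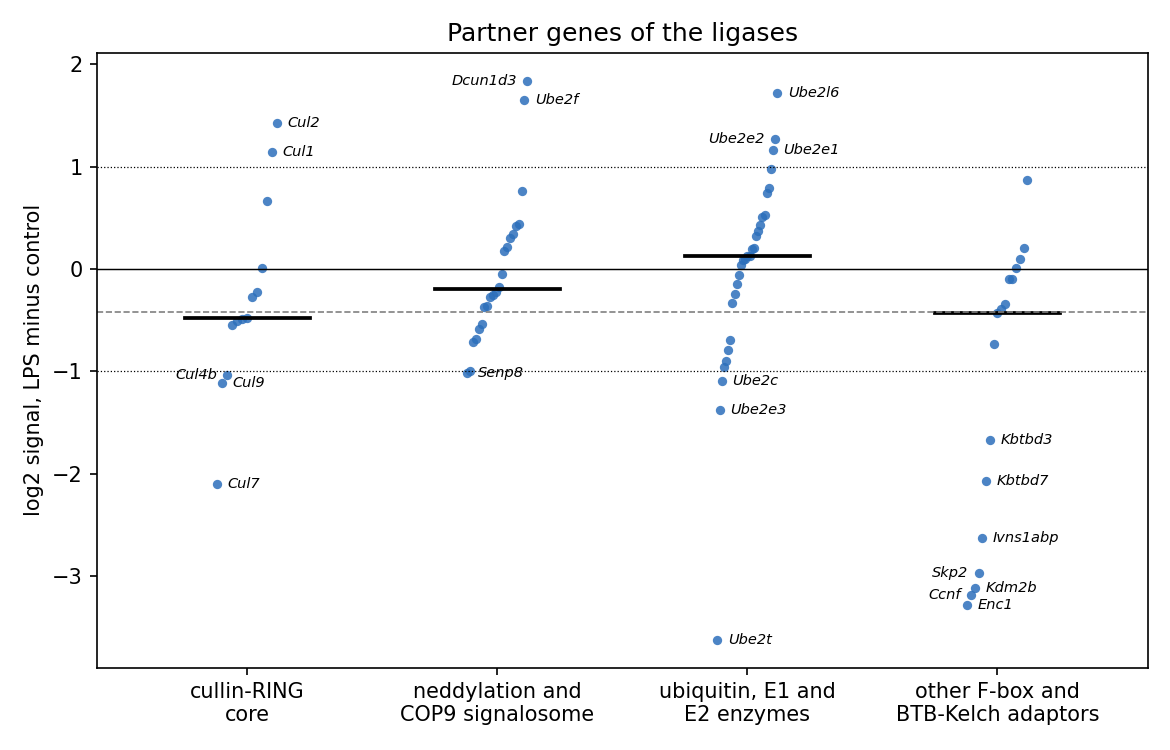
Log2 ratio of LPS over control signal (vertical axis) for measured genes of 4 partner lists, 1 point per gene, with a bar at each list's median, dotted lines at 2-fold and a dashed line at the median of all measured genes (-0.42). Genes past 2-fold are named, and the list of other F-box and BTB-Kelch adaptors holds 7 of them, all on the lower side.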

How the data were processed

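The series holds 2 arrays, 1 control and 1 LPS, grouped by their titles. The authors deposited linear intensity values for each probe set, and per the submitters' processing notes these come from MAS5. Its version, target scaling and any detection call are not stated in the labels. Of 45101 probe sets, 64 array controls were left out, and 34945 had 1 gene in the platform annotation, 932 several genes and 9160 no listed gene. All 176 members matched the RefSeq gene table (GRCm38.p6) by gene identifier, with 0 changed symbols. The floor was each array's median over non-control probe sets, and a gene was represented by its brightest probe set (mean log2 signal over both arrays). Genes were counted at 2-fold. With 1 array per group no test was made. The steps were tested on simulated data (Python 3.11.15, numpy 2.4.6, pandas 2.3.3, statsmodels 0.14.6 for loess with a span of 0.4).

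The named genes are the 15 highest and 15 lowest members by log2 ratio, the 3 highest, 3 lowest and 3 with the highest control signal of each family, every measured member of the role lists, and members whose probe sets differ by over 2 on the log2 scale. Others named, including the unmeasured members, were added after their values were seen. The members, lists, alternatives and first 4 promoter motifs were chosen with earlier results of these data known, and the last 4 motifs after the first 4 had been counted. Alternatives were other floors, a pseudocount of 16, 5 scalings, other choices of probe set, and thresholds of 3-fold and 1.5-fold.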

Additional observations from a re-analysis of the deposited data

How the results depend on the processing

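As deposited, 9 members passed 2-fold on the higher side and 40 on the lower, and the median was -0.55 (log2 ratio). Scaling moved these values. The median was -0.17 with quantile normalization, -0.12 after median centring, -0.0099 after loess and -0.26 with the poly-A controls as the scale, and it stayed negative under all 11 alternatives that give one. The number higher was 16 after median centring, 15 after loess and 14 on the poly-A scale. The number lower was 25 after median centring and 20 after loess, and with quantile normalization it was 27. At a threshold of 3-fold 3 were higher and 17 lower, and at 1.5-fold 16 and 62. The share of higher among all genes past 2-fold moved likewise, from 964 higher and 3076 lower to 1537 and 1790 after median centring. Of the 49 members past 2-fold, 8 higher and 16 lower ones stayed past it under every alternative that gave a value. Rnf130 had a log2 ratio of 0.083 with plain probe sets alone, the opposite direction, and was the 1 called member to change sign. No paired analysis was possible because each group has 1 array. With 1 array per group no replicate could be left out, and signals near the floor limit what can be said of dim genes.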

Other observations

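The members were also compared with all measured genes of like signal. At a mean log2 signal of 0 to 5 the median log2 ratio was -0.02 over 5 members and -0.33 over 1182 genes. At a mean log2 signal of 5 to 7 the median log2 ratio was -0.90 over 33 members and -0.61 over 3417 measured genes, at 7 to 9 it was -0.67 over 57 and -0.61 over 3898, and at 9 to 11 it was -0.25 over 29 and -0.23 over 2439. At 11 to 15 it was 0.99 over 5 members and -0.08 over 786 genes.

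Median centring brought 7 members past 2-fold on the higher side that were within 2-fold as deposited: Rnf121, Rnf4, Rnf115, Rnf139, Fbxl5, Rnf34 and Rnf149. It took 15 members out of the lower group, among them Klhl7, Klhl9, Rnf5 and Fbxo11. Median centring thus changed the call of 22 members.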
